A study of Mus musculus with 10 samples.

Results

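DARPP-32, encoded by Ppp1r1b, and 9 further genes of striatal protein phosphatases and their regulators were followed in RNA sequencing data from mouse striatum. The 10 genes were chosen by name (Ppp1r1b, Ppp1r1a, Arpp19, Arpp21, Ptpn5, Ppp1r9b, Ppp1ca, Ppp3ca, Ppp3r1 and Ppp1r16b). Earlier results of these data were known when that choice was made. All 10 were found among the 47632 gene rows of the deposited table, and all 10 were among the 15905 genes that were tested. Striatal RNA came from 5 samples of R6/2 mice, hemizygous for the transgene, and from 5 samples of controls labelled isogenic and wild-type, all taken at 11 weeks of age. R6/2 models Huntington's disease by expressing, from the human promoter, only the start of human huntingtin with a long CAG repeat, while the mouse's own huntingtin genes stay intact. The sources used here give neither strain nor sex. Nor do the labels say that each sample is a separate animal. The p-values thus set group differences only against the spread of these samples, which may be technical.

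Reversible phosphorylation carries the dopamine and glutamate signals that reach the spiny projection neurons, the output neurons of the striatum. Dopamine acting through cyclic AMP and protein kinase A turns DARPP-32 into an inhibitor of protein phosphatase 1, while calcium acting through calcineurin removes that phosphate again. Striatum is rich in DARPP-32, in the calmodulin-binding phosphoprotein encoded by Arpp21 and in the tyrosine phosphatase STEP, encoded by Ptpn5, which are widely used as markers of its spiny neurons.

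Levels are FPKM as the authors deposited them, a unit that is scaled by transcript length. Orders of level, sums and shares over several genes also assume that each gene was captured alike, which was not tested. How these values were scaled between libraries is unknown. Changes are R6/2 minus control on the log2(FPKM + 1) scale from limma, with standard errors (SE) and p-values adjusted over all 15905 tested genes by the Benjamini-Hochberg method. A gene is said to fall or rise where its adjusted p is under 0.05. Of the 10 genes, 10 fell and 0 rose, where 9.11% of all tested genes fell and 5.00% rose. Since the 10 were chosen with earlier results known, counts among them describe these genes and do not test them as a set. The R6/2 and control ranges did not overlap for any of the 10, with R6/2 lower, which held for 8.58% of all tested genes. All 10 were also called lower after the libraries were rescaled to the same protein-coding total (7.12% of genes then lower) and after quantile normalization (8.03%). Over all genes 1449 fell and 795 rose, against 1133 and 1520 after that rescaling and 1277 and 1111 after quantile normalization. The median log2 change was -1.51 over the 10 genes and 0.00 over all tested genes. Of the 10, 9 were at or below 50% of their control mean, where 3.75% of tested genes both fell and were that low. The summed level of the 10 genes was 1363 to 1697 FPKM in controls and 488 to 548 in R6/2. Control 5 held the lowest control value for 5 of the 10 genes and the highest for 0. In bulk tissue, fewer spiny neurons and less RNA per neuron cannot be told apart.

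**Figure D1:**
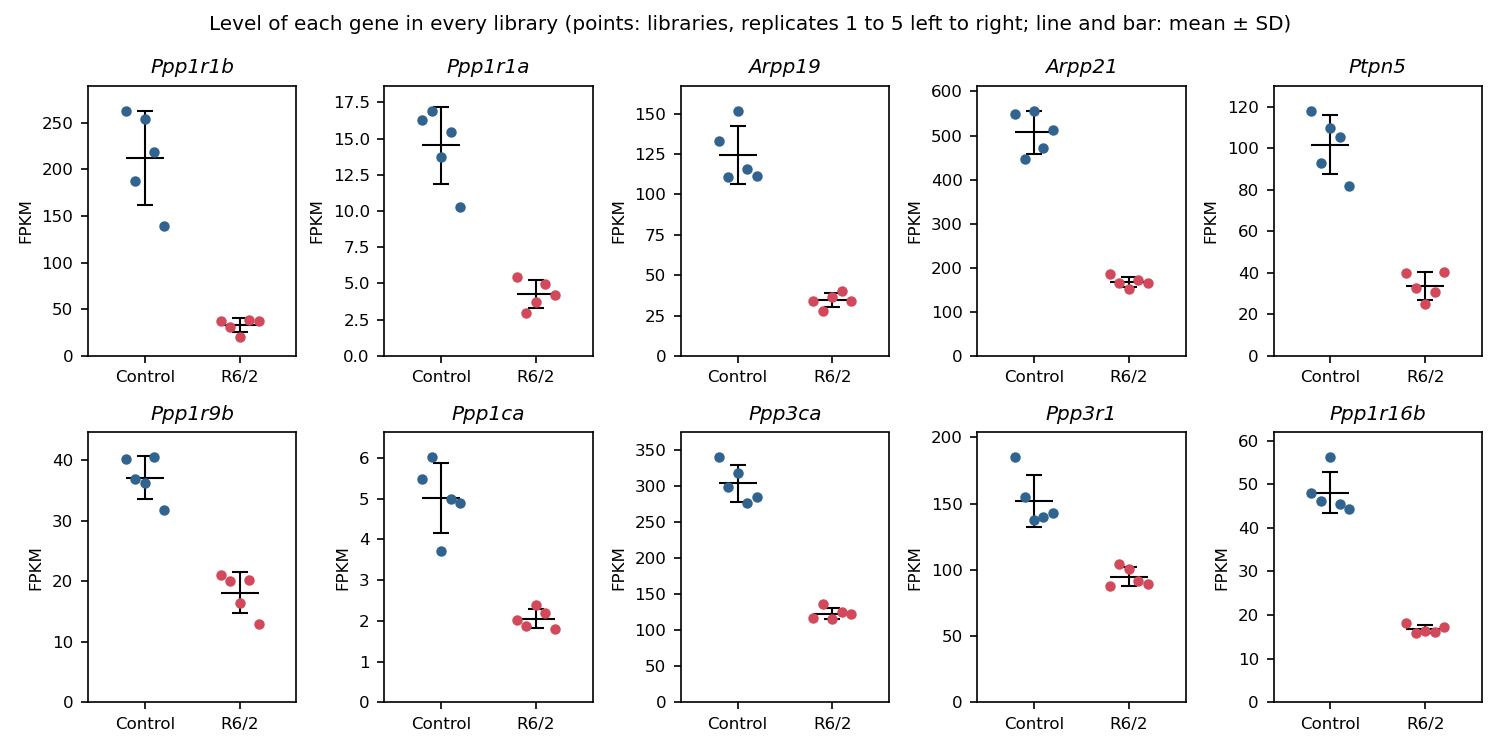
FPKM of each of the 10 genes (vertical axes, each from 0) in the 5 control and 5 R6/2 libraries, with a point for each library and a line and bar for the mean and SD. In each panel all R6/2 points lie below all control points.

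The libraries themselves differed in some respects. The summed FPKM of nuclear protein-coding genes ran from 211209 to 219426 in controls and from 193203 to 202906 in R6/2, and the number of sequenced fragments per library is unknown. Mitochondrial genes took 28.1 to 33.8% of all FPKM in controls and 22.1 to 29.9% in R6/2. Total FPKM was 2309123 in Control 5 and 1545169 to 1823327 in the other 9 libraries, and all 10 genes were also called lower without Control 5. The part of these differences in the results was not tested further. Defining striatal markers were present: 29 of 29 spiny neuron markers outside the 10 genes were tested and 29 fell. Of 10 cortical neuron markers 2 rose and 1 fell, none was listed at 0, and their summed level was 68.5 to 111 FPKM in controls and 86.8 to 163 in R6/2. Of 6 thalamic neuron markers 5 were tested and 1 rose (Slc17a6), with sums of 39.5 to 65.9 FPKM in controls and 45.9 to 66.3 in R6/2. Beside the 9.11% of all tested genes that fell, 5 of 6 tested interneuron markers, 5 of 10 astrocyte markers and 7 of 10 myelin markers fell, as did 1 of 9 microglia markers (11.1%). Slc18a3, Pthlh, Calb2 and C1qa of these lists were listed at 0 in at least 1 library. Summed levels in controls and R6/2 were 329 to 587 and 214 to 248 FPKM for interneurons, 740 to 802 and 443 to 533 for astrocytes, and 1563 to 1761 and 731 to 1124 for myelin. They were 82.1 to 92.0 and 68.4 to 77.7 FPKM for microglia, and 0 of 9 tested endothelial and mural markers changed. A cortical signal, the mean standardised log2 level of 4 cortical neuron markers, was higher in every R6/2 library (0.148 to 1.48) than in every control (-1.704 to -0.036). With that signal as a term all 10 genes were again called lower, beside 3.31% of all tested genes. Because the signal did not overlap between the groups, this fit cannot fully divide a change between signal and group. The part of the other cell types in the results was not tested.

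RefSeq promoter windows (GRCm38.p6) were matched for 6 of the 10 genes, with 17 annotated starts between them, some of whose windows overlap. Ppp1r1b, Ppp1r1a, Ppp1ca and Ppp3ca had no entry. The windows of Arpp19 and Ppp3r1 are shown because these had the largest and the smallest fall among the 6. Each stretch ends before the first base of any GENCODE M21 exon and reads 5′ to 3′ on the plus strand, on which both genes lie. Capitals mark the short form of the cyclic AMP response element (TGACG, or CGTCA on the other strand), which the Arpp19 stretch lacks.
Arpp19, chr9:75037364-75037613: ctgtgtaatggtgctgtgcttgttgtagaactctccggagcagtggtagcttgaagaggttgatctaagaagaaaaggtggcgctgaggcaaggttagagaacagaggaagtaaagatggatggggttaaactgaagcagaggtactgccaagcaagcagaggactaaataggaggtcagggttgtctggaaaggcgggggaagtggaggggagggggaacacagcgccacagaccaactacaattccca
Ppp3r1, chr11:17159048-17159262: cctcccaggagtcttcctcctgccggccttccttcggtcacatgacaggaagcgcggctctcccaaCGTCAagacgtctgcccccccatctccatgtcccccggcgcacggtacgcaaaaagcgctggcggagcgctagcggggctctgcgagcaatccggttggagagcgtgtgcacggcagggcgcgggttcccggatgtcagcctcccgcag
The Arpp19 stretch holds 51.2% G and C, and the Ppp3r1 stretch 67.4%. Over the 250 bases before each start, on both strands, the short element was found in 4 of the 17 windows (23.5%), from 3 of the 6 genes, and in 17.8% of all 32851 windows. The full element TGACGTCA, which contains the short one, was found in 0 of the 17 and in 1.55% of all windows, and the Egr-type motif GCGNGGGCG in 0 of the 17 and in 4.70%. The GC box GGGCGG was found in 2 of the 17 (11.8%), of Ppp3r1 and Ptpn5, and in 32.7% of all windows. CCAAT was found in 5 of the 17 (29.4%), all of Arpp21, and in 33.85% of all windows, and TATAAA in 0 of the 17 and in 12.4%. A match is a run of letters, and was not tested as a binding site.

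Ppp1r1b fell most among the 10 genes, and by more than the median of 29 other spiny neuron markers, whose log2 change was -2.01. Of those markers Scn4b, Penk, Rgs9, Pde10a and Adora2a fell more (log2 changes -3.78 to -2.71), and the others less. Ppp1r1b (ENSMUSG00000061718.12, GRCm38 chromosome 11, 98348404 to 98357796, plus strand) was at 263, 187, 253, 218 and 139 FPKM in Controls 1 to 5. It was at 36.9, 30.7, 20.6, 38.5 and 36.9 FPKM in R6/2 1 to 5. Control 5 was the lowest control and R6/2 3 the lowest library of all, and the highest R6/2 library held 27.7% of the lowest control. The mean fell from 212 ± 50.7 to 32.7 ± 7.42 FPKM (SD, n = 5), to 15.4% of control. In limma its log2 change was -2.66 (SE 0.216, 95% interval -3.14 to -2.17, limma adjusted p = 5.66e-05), rank 92 among the falls of all 15905 tested genes. Over 460 bases, 15.7% of its exonic bases, its exons overlap those of 1700003D09Rik on the other strand. That gene also fell (log2 change -2.15, limma adjusted p = 9.77e-05). The sources used here do not say whether the authors' values used the strand of reads, so reads of these exons cannot be told apart between the pair.

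Ppp1r1a encodes inhibitor-1, a relative of DARPP-32 that also inhibits protein phosphatase 1 once protein kinase A has phosphorylated it. Ppp1r1a (ENSMUSG00000022490.6, chromosome 15, 103530279 to 103538003, minus strand) was at 16.3, 16.9, 13.7, 15.4 and 10.3 FPKM in Controls 1 to 5 and at 5.44, 2.97, 3.76, 4.96 and 4.24 FPKM in R6/2 1 to 5. As for Ppp1r1b, Control 5 was the lowest control, and the highest R6/2 library held 53.0% of it. The log2 change was -1.56 (SE 0.165, limma adjusted p = 0.000258), and the mean fell to 29.4% of control. Within each library, Ppp1r1b held 93.4 ± 1.19% of the summed FPKM of the 2 inhibitor genes in controls and 88.2 ± 2.53% among R6/2 libraries (n = 5 each, SD; two-sided exact permutation p = 0.00794, adjusted over the 6 shares 0.00952). The R6/2 shares ran from 84.6 to 91.2%, all below the lowest control share of 91.7%.

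Arpp19 encodes a small phosphoprotein that, once phosphorylated by the kinase MASTL, inhibits protein phosphatase 2A, and that is also a substrate of protein kinase A. Arpp19 (ENSMUSG00000007656.13, chromosome 9, 75037614 to 75060313, plus strand) was at 133, 111, 152, 116 and 111 FPKM in Controls 1 to 5 and at 33.8, 28.1, 36.3, 40.0 and 33.8 FPKM in R6/2 1 to 5. Control 3 stood above the other controls. The relative spread was similar in the groups, with an SD of 14.3% of the mean in controls and 12.6% in R6/2. In limma its log2 change was -1.82 (SE 0.118, limma adjusted p = 1.83e-05), the second largest fall of the 10. Its paralog Ensa, which inhibits the same phosphatase in the same way, stood at 180 ± 18.3 FPKM in controls and 204 ± 26.0 among R6/2 libraries (n = 5, SD), with a log2 change of 0.17 (95% interval -0.06 to 0.41, limma adjusted p = 0.319). Arpp19 thus made up 40.8 ± 3.79% of the summed FPKM of the pair in controls and 14.6 ± 2.61% among R6/2 libraries (n = 5 each, SD; two-sided exact permutation p = 0.00794, adjusted over the 6 shares 0.00952). No R6/2 share exceeded 16.6%, and no control share was under 38.3%.

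Ppp1r9b and Ppp1r16b encode subunits that direct protein phosphatase 1 to particular places. Spinophilin, the product of Ppp1r9b, holds the enzyme in dendritic spines near its receptor and channel substrates. Ppp1r9b (ENSMUSG00000038976.12, chromosome 11, 94991035 to 95006899, plus strand) was at 40.1, 36.8, 36.2, 40.5 and 31.8 FPKM in Controls 1 to 5 and at 21.05, 20.04, 16.4, 20.3 and 12.9 FPKM in R6/2 1 to 5. R6/2 5 was the lowest library and Control 5 the lowest control. The log2 change was -1.01 (SE 0.136, limma adjusted p = 0.000988), and the mean fell to 48.9% of control. Its paralog Ppp1r9a, which encodes neurabin, fell by a like amount, from 128 ± 28.0 to 62.03 ± 5.73 FPKM (log2 change -1.01, limma adjusted p = 0.00101). Ppp1r9b held 22.8 ± 3.08% of the summed FPKM of the pair in controls and 22.5 ± 3.41% among R6/2 libraries (n = 5, SD), and the ranges of 18.7 to 25.9% and 16.9 to 25.5% overlapped (exact permutation test, two-sided, p = 0.881, adjusted 0.881). This was the only one of the 6 shares without a difference past the threshold.

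Ppp1r16b encodes TIMAP, a membrane-anchored subunit of the myosin phosphatase targeting family. Ppp1r16b (ENSMUSG00000037754.13, chromosome 2, 158665398 to 158766334, plus strand) was at 48.0, 46.2, 56.2, 45.6 and 44.4 FPKM in Controls 1 to 5 and at 18.3, 15.8, 16.5, 16.2 and 17.2 FPKM in R6/2 1 to 5. Its R6/2 libraries had the smallest relative spread of the 10 genes, with an SD of 5.76% of the mean. In limma its log2 change was -1.46 (SE 0.0788, limma adjusted p = 6.2e-06). Stretches of 201 to 215 bases of its transcripts match transcripts of other genes at over 95% identity, among them Lztr1 and Nif3l1. Its paralog Ppp1r16a stood at 4.07 ± 1.11 FPKM in controls and 3.35 ± 0.952 among R6/2 libraries (n = 5, SD; log2 change -0.22, 95% interval -0.67 to 0.22, limma adjusted p = 0.532). The share of Ppp1r16b in the pair was 92.2 ± 1.51% in controls and 83.5 ± 3.78% among R6/2 libraries (n = 5 each, SD; two-sided exact permutation p = 0.00794, adjusted over the 6 shares 0.00952).

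Ppp1ca encodes the alpha catalytic subunit of protein phosphatase 1, the enzyme that DARPP-32 inhibits. It had the lowest level of the 10 genes. Ppp1ca (ENSMUSG00000040385.6, chromosome 19, 4192065 to 4195420, plus strand) was at 5.47, 6.02, 3.72, 4.99 and 4.90 FPKM in Controls 1 to 5 and at 2.02, 1.89, 2.39, 2.19 and 1.80 FPKM in R6/2 1 to 5. Control 3 was the lowest control and R6/2 3 the highest R6/2 library, and they did not overlap. The log2 change was -0.97 (SE 0.118, limma adjusted p = 0.000549). The size of that change depended on the pseudocount: it was -0.50 after adding 5 FPKM in place of 1 and -1.24 after adding 0.1, while the ratio of means was 41.0%. Its exons overlap those of Rad9a on the other strand over 225 bases.

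The beta catalytic subunit gene Ppp1cb held most of the summed FPKM of the 3 catalytic genes. Ppp1cb fell to 82.4 ± 9.80 from 122 ± 14.2 FPKM (n = 5, SD). Its log2 change was -0.56 (SE 0.106, limma adjusted p = 0.00719). With the cortical signal as a term Ppp1cb did not pass (-0.62, SE 0.157, limma adjusted p = 0.0706). The gamma subunit gene Ppp1cc stood at 5.403 ± 2.2 FPKM in controls and 4.28 ± 1.34 among R6/2 libraries (log2 change -0.23, 95% interval -0.89 to 0.43, limma adjusted p = 0.659). Ppp1ca held 3.81 ± 0.597% of the summed FPKM of the 3 catalytic genes in controls and 2.34 ± 0.374% among R6/2 libraries (n = 5 each, SD; two-sided exact permutation p = 0.00794, adjusted over the 6 shares 0.00952).

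Calcineurin is a calcium-dependent phosphatase made of a catalytic and a regulatory subunit, and it dephosphorylates DARPP-32. Ppp3ca, the gene of its alpha catalytic subunit (ENSMUSG00000028161.17, chromosome 3, 136670124 to 136937727, plus strand), was at 340, 298, 318, 277 and 285 FPKM in Controls 1 to 5. In R6/2 1 to 5 it was at 117, 136, 115, 125 and 123 FPKM, so that the highest R6/2 library held 49.0% of the lowest control. In limma its log2 change was -1.29 (SE 0.0776, limma adjusted p = 1.12e-05). Ppp3cb, which encodes the beta catalytic subunit, stood at 75.8 ± 9.33 FPKM in controls and 76.2 ± 4.62 among R6/2 libraries (n = 5, SD; log2 change 0.01, 95% interval -0.19 to 0.22, limma adjusted p = 0.95). Ppp3cc, the gamma subunit gene, was at 4.33 ± 1.51 and 6.22 ± 1.498 FPKM (log2 change 0.46, 95% interval -0.05 to 0.98, limma adjusted p = 0.233). The share of Ppp3ca among the 3 catalytic genes was 79.0, 79.2, 82.8, 75.3 and 79.0% in Controls 1 to 5 and 59.6, 62.3, 56.1, 61.4 and 59.8% in R6/2 1 to 5. That share was lower in every R6/2 library than in every control (exact permutation test, two-sided, p = 0.00794, adjusted 0.00952).

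Ppp3r1, the gene of the calcium-binding regulatory subunit (ENSMUSG00000033953.10, chromosome 11, 17159263 to 17200375, plus strand), had the smallest fall of the 10. It was at 185, 155, 138, 140 and 142 FPKM in Controls 1 to 5 and at 87.9, 105, 100.3, 91.5 and 89.6 FPKM in R6/2 1 to 5. Control 1 stood above the other controls, and the highest R6/2 library held 75.8% of the lowest control. The log2 change was -0.67 (SE 0.0956, limma adjusted p = 0.00136), and the mean fell to 62.3% of control. Of its exonic bases, 462 are shared with Wdr92 on the same strand, whose mean was 1.84 FPKM for controls and 1.96 for R6/2. The ratio of Ppp3ca to Ppp3r1 was compared after the values were seen, so its p is no independent support. That ratio was 2.002 in controls and 1.299 in R6/2 (geometric means). The log2 ratio differed by -0.62 (exact permutation test, two-sided, n = 5, p = 0.00794). Ppp3r1 was thus less reduced than Ppp3ca within the same libraries. This holds for Ppp3ca only, as the other catalytic genes, Ppp3cb and Ppp3cc, did not fall.

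Ptpn5 and Arpp21 are both known as genes of spiny neurons and act on other steps. STEP, the product of Ptpn5, removes phosphate from tyrosines of kinases such as Fyn and the MAP kinases and of glutamate receptor subunits. Ptpn5 (ENSMUSG00000030854.16, chromosome 7, 47077795 to 47133684, minus strand) was at 118, 93.2, 110, 105 and 82.0 FPKM in Controls 1 to 5 and at 40.0, 32.5, 25.0, 30.7 and 40.3 FPKM in R6/2 1 to 5. Control 5 was again the lowest control and R6/2 3 the lowest R6/2 library, as for Ppp1r1b. In limma its log2 change was -1.58 (SE 0.149, limma adjusted p = 0.000132). Arpp21, whose shorter product binds calmodulin when phosphorylated by protein kinase A, had the highest level of the 10 genes. Arpp21 (ENSMUSG00000032503.17, chromosome 9, 112065091 to 112235938, minus strand) was at 549, 446, 557, 471 and 512 FPKM in Controls 1 to 5 and at 186, 165, 152, 171 and 165 FPKM in R6/2 1 to 5. Its log2 change was -1.59 (SE 0.085, limma adjusted p = 6.08e-06), and the mean fell to 33.1% of control, the same percentage as for Ptpn5. The microRNA gene Mir128-2 lies within Arpp21 on the same strand, outside its exons, and was listed at 0 in both groups.

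**Figure D2:**
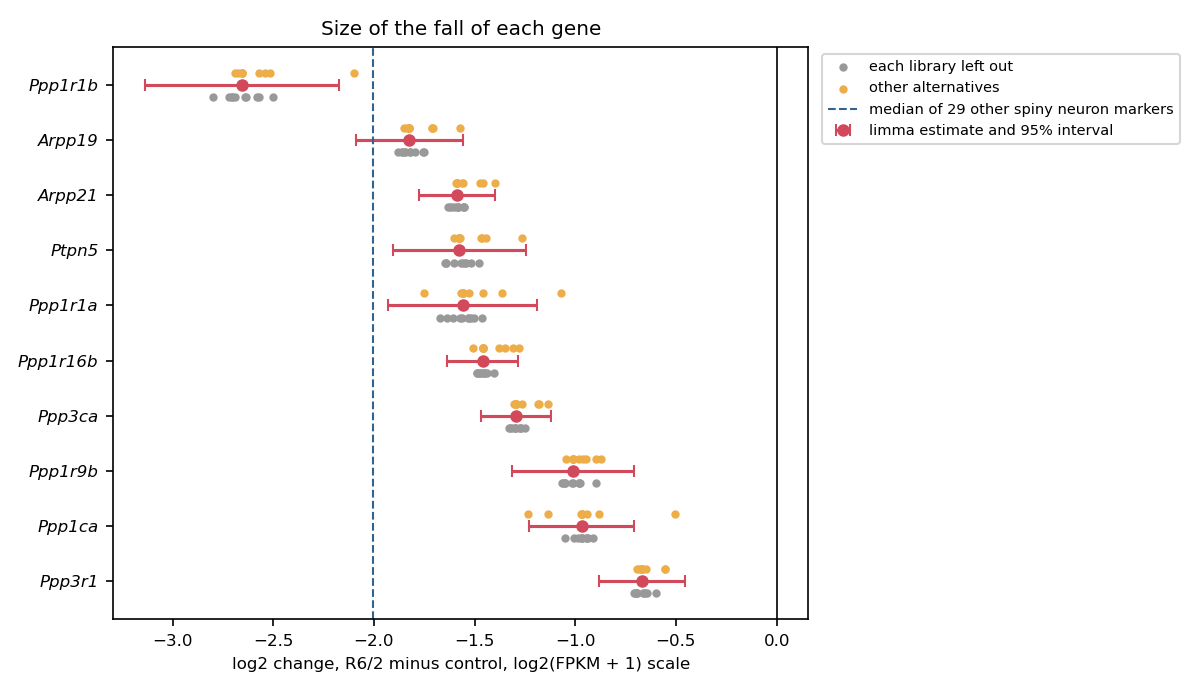
Log2 change of each gene (horizontal axis, R6/2 minus control, log2(FPKM + 1) scale) with its 95% interval, ordered by size, with grey and yellow points for each library left out and for the other alternatives, and a dashed line at the median of the other spiny neuron markers, -2.01. Ppp1r1b is the only gene of the 10 whose estimate lies beyond that line, and all points of every gene lie below 0.

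The order of levels changed between the groups. In controls it ran from Arpp21 (507 FPKM) over Ppp3ca (303), Ppp1r1b (212), Ppp3r1 (152), Arpp19 (124), Ptpn5 (102), Ppp1r16b (48.1), Ppp1r9b (37.1) and Ppp1r1a (14.5) to Ppp1ca (5.02). Neighbours whose control ranges overlapped were Ppp1r1b and Ppp3r1, Ppp3r1 and Arpp19, and Arpp19 and Ptpn5. In R6/2, Ppp1r1b was sixth with 32.7 FPKM, after Arpp19 (34.4) and Ptpn5 (33.7), and the ranges of these 3 genes overlapped, as did those of Ppp1r1b and Ppp1r9b. Ppp3r1 took the third place with 94.8 FPKM, apart from its neighbours on both sides. Ppp1r9b (18.1) and Ppp1r16b (16.8) stood in the reverse order to that in controls, with overlapping ranges.

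Ppp1r1b also fell more than each of the other 9 genes when the ratio was taken within libraries, a comparison chosen after the values were seen. The difference in the log2 ratio, R6/2 minus control, ran from -0.84 against Arpp19 and -0.92 against Ppp1r1a to -1.64 against Ppp1r9b and -2.02 against Ppp3r1. Ppp1r1b was at 41.7 times the level of Ppp1ca in controls and 15.6 times in R6/2 (geometric means). For each of the 10 ratios compared, that of Ppp3ca to Ppp3r1 included, the 5 R6/2 values lay below the 5 control values (exact permutation test, two-sided, p = 0.00794, adjusted over the 10 ratios 0.00794), which is the smallest p that 5 against 5 samples allow. Since these are ratios within a library, scaling between libraries does not move them.

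Beside the mean of 29 other spiny neuron markers in the same library, the 10 genes took different places. That mean was 6.05 ± 0.156 in controls and 4.17 ± 0.213 in R6/2 on the log2(FPKM + 1) scale (n = 5, SD). Log2 changes of the 29 markers ran from -3.78 (Scn4b) to -0.49 (Gad2). The places below thus depend on which markers are listed, and other lists were not tried. Relative to the marker mean, Ppp1r1b went from 1.65 ± 0.247 to 0.872 ± 0.156 and was lower in every R6/2 library than in every control. Arpp19 was at 0.909 ± 0.06 and 0.966 ± 0.27, with overlapping ranges, so its fall was close in size to that of the marker mean. The ranges also overlapped for Arpp21, Ptpn5 and Ppp1r1a, with group differences of 0.29, 0.31 and 0.32. Ppp1r16b, Ppp3ca, Ppp1r9b, Ppp1ca and Ppp3r1 were higher relative to the marker mean in every R6/2 library than in every control, by 0.42, 0.59, 0.87, 0.91 and 1.21. These differences are given as a description, without a test. The added 1 FPKM shrinks changes of genes at low level, so the places of Ppp1ca and Ppp1r1a may depend on it. For Ppp1r1a the log2 change itself was -1.07 after adding 5 FPKM and -1.75 after adding 0.1.

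**Figure D3:**
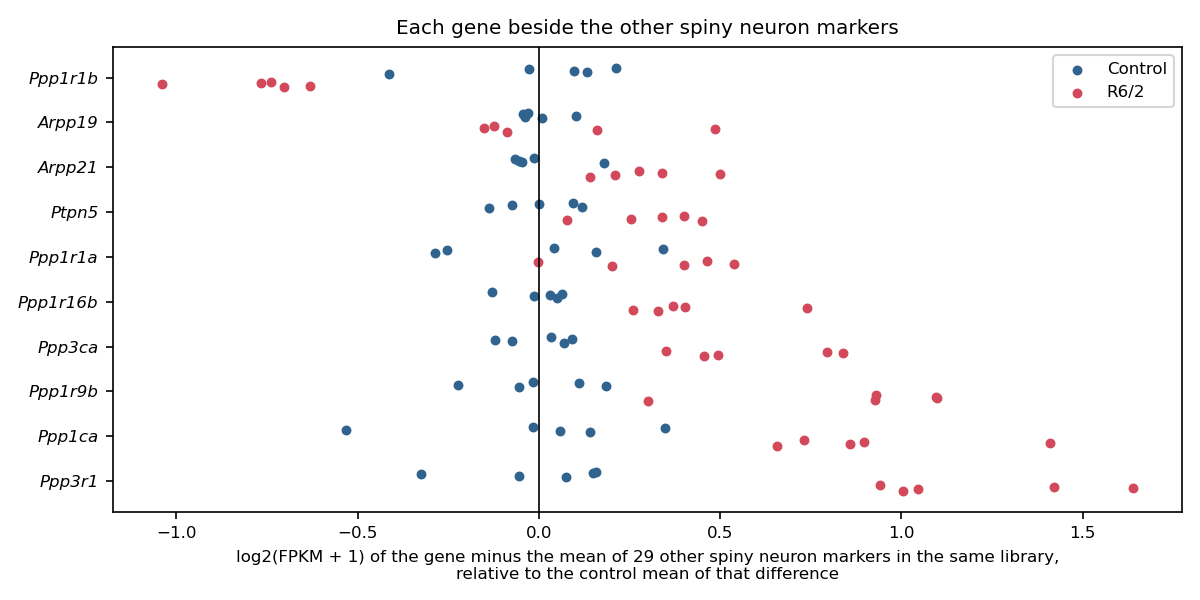
Level of each gene minus the mean of 29 other spiny neuron markers in the same library (horizontal axis, log2(FPKM + 1) scale, relative to the control mean of that difference), for 5 control and 5 R6/2 libraries. R6/2 points lie left of the controls for Ppp1r1b, overlap them for Arpp19, Arpp21, Ptpn5 and Ppp1r1a, and lie right of them for the other 5 genes.

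The 5 genes whose pattern over the 10 libraries was most like that of Ppp1r1b were Adora2a, Pde10a, Hipk4, Syndig1l and Rgs9. Likeness was the root mean square difference between the log2(FPKM + 1) values of 2 genes, each relative to its own control mean, among 7536 named genes whose mean reached 5 FPKM. Adora2a, Pde10a and Rgs9 were also on the spiny neuron list. It was 0.181 for the adenosine receptor gene Adora2a, 0.232 for the phosphodiesterase gene Pde10a, 0.241 for the kinase gene Hipk4, 0.265 for Syndig1l and 0.266 for Rgs9, a regulator of G protein signalling. Of the other members, the nearest were Arpp19 at place 37 (0.66), Ptpn5 at place 55 (0.785) and Arpp21 at place 65 (0.806), and Ppp3r1 was at place 550 (1.45). Because each value is taken from the control mean, the measure takes in the size of the fall.

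**Figure D4:**
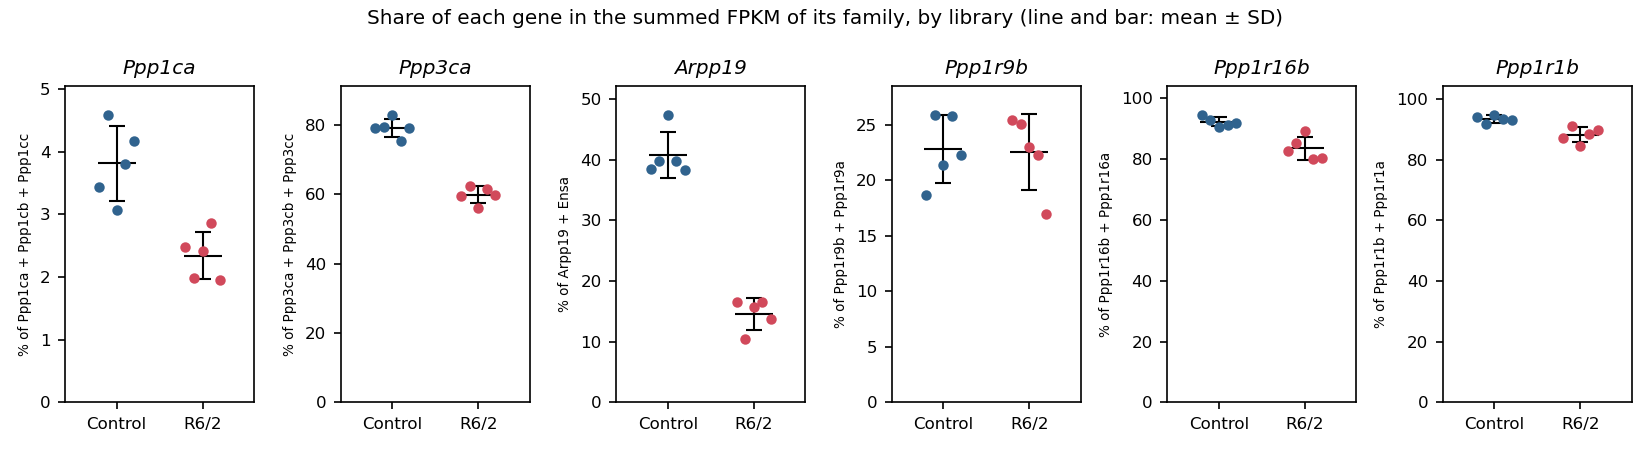
Share of each gene in the summed FPKM of its gene family (vertical axes, percent, from 0) in 5 control and 5 R6/2 libraries, with mean and SD. The groups do not overlap for Ppp1ca, Ppp3ca, Arpp19, Ppp1r16b and Ppp1r1b, and overlap for Ppp1r9b.

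In 6 lists of related phosphatase and kinase genes, between 9.09 and 38.5% of the tested genes fell, beside 9.11% of all tested genes. Of 39 other genes of protein phosphatase 1 and its regulators, 26 were tested, 7 fell (26.9%) and 3 rose (11.5%, beside 5.00% of all tested genes), with a median log2 change of -0.09. The actin-binding regulator gene Phactr1 fell to 201 ± 37.8 from 473 ± 56.5 FPKM (n = 5, SD; log2 change -1.24, limma adjusted p = 0.000283), and Phactr4 rose from 3.48 ± 0.3 to 5.91 ± 0.549 FPKM (log2 change 0.62, limma adjusted p = 0.00102). Of 25 genes of protein phosphatase 2A and its inhibitors, 22 were tested and 4 fell (18.2%), with a median of 0.01. Among these, the gene of the scaffold striatin, Strn, fell from 59.5 ± 13.3 to 18.8 ± 1.08 FPKM (log2 change -1.59, limma adjusted p = 7.4e-05), and the regulatory subunit genes Ppp2r2a and Ppp2r5d fell by 0.68 and 0.53 on the log2 scale. Fitted beside the cortical signal these 2 had log2 changes of -0.56 and -0.41 and did not pass (limma adjusted p = 0.0548 and 0.122).

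Of 17 other calcineurin and calmodulin genes 13 were tested, 5 fell (38.5%, beside 9.11% of all tested genes) and 0 rose, with a median log2 change of -0.26. Akap5, which anchors calcineurin and protein kinase A at synapses, fell to 21.6 ± 3.36 from 54.1 ± 5.13 FPKM (n = 5, SD; log2 change -1.29, limma adjusted p = 8.08e-05). The calcineurin inhibitor gene Rcan2 also fell (log2 change -0.63, SE 0.146, limma adjusted p = 0.018). It did not pass once the cortical term was added (-0.74, SE 0.215, limma adjusted p = 0.112). Of 16 genes of kinases known to phosphorylate DARPP-32, their subunits and activators, 16 were tested, 3 fell (18.75%) and 2 rose (12.5%), with a median of 0.08. The protein kinase A regulatory subunit gene Prkar1b rose from 35.4 ± 3.52 to 52.7 ± 4.09 FPKM (log2 change 0.56, limma adjusted p = 0.00227) and the casein kinase gene Csnk1d from 17.5 ± 1.75 to 24.1 ± 1.604 FPKM (0.44, 0.0063). The gene of the Cdk5 activator p35, Cdk5r1, fell by 0.44 (limma adjusted p = 0.00995). Fitted beside the cortical signal, changes were 0.51 for Prkar1b, 0.41 for Csnk1d and -0.32 for Cdk5r1 on the log2 scale, and none of the 3 passed (limma adjusted p = 0.0723, 0.126 and 0.229).

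Relatives and substrates of STEP had 8 of 9 genes tested, of which 3 fell (37.5%, beside 9.11% of all tested genes) and 0 rose, with a median log2 change of -0.25. The kinase gene Ptk2b fell to 46.6 ± 2.17 from 79.9 ± 7.21 FPKM (n = 5, SD; log2 change -0.76, limma adjusted p = 0.000199). The AMPA receptor gene Gria2 fell by 0.28 (limma adjusted p = 0.0342), and passed in 8 of the 20 alternatives. It did not pass without any 1 of Controls 1 to 4 or R6/2 3, 4 or 5 (limma adjusted p = 0.0533 to 0.0789). Of 15 other non-receptor tyrosine phosphatase genes, 11 were tested and 1 fell (9.09%), Ptpn13 (log2 change -0.41, limma adjusted p = 0.0321), which passed in 8 of 19 alternatives. It did not pass without any 1 of Controls 2 and 3 or R6/2 1 to 4 (limma adjusted p = 0.0587 to 0.0822). Ptpn12 and Ptpn11 had log2 changes of -0.28 and -0.47 (limma adjusted p = 0.0933 and 0.121). Ptpn5 at -1.58 lay outside the range of these 11 genes, -0.97 to 0.42.

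**Figure D5:**
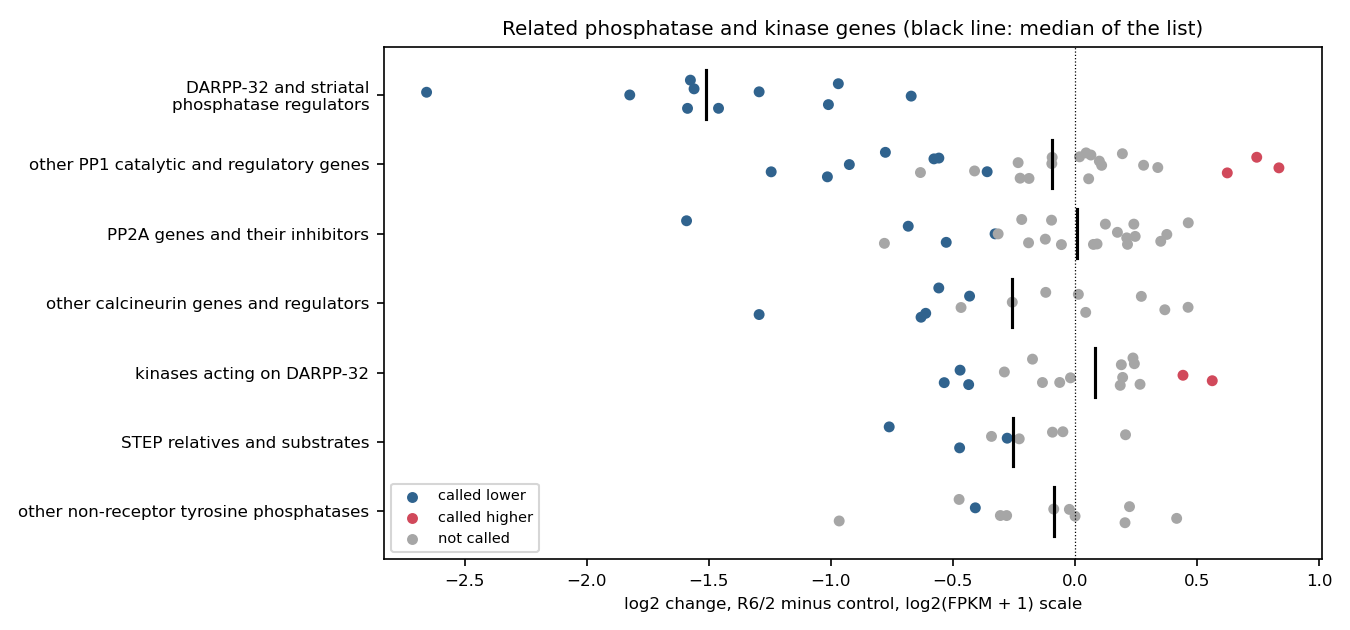
Log2 change of each tested gene (horizontal axis, R6/2 minus control, log2(FPKM + 1) scale) in the 10 genes followed here and in 6 lists of related genes, coloured by whether it was called lower, higher or not called in limma. The 10 genes lie between -2.66 and -0.67, with a median of -1.51, while the medians of the 6 lists lie between -0.26 and 0.08. Single genes of the 6 lists lie between -1.59 and 0.84, so that some fall within the range of the 10.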

How the data were processed

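RNA of 10 striatal samples (5 control, 5 R6/2) was isolated with Qiagen's kit for lipid-rich tissue, NuGEN Ovation was used before Nextera libraries were made, and these ran on an Illumina HiSeq, per the labels' protocols. The authors deposited 1 table of FPKM values, 1 column per library. STAR 2.4.0, Cufflinks and Cuffdiff with the build GRCm38 are named in the submitters' processing notes, which in the sources used here give no role for each tool, no strand setting and no scaling. The labels also list a workbook, not analysed here. FPKM are not counts and depth is unknown, so no counting interval is given.

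Symbols and positions came from GENCODE M21 (GRCm38) by stable Ensembl ID (47220 of 47632 matched, 39102 also in version). Testing covered the 15905 genes whose mean reached 1 FPKM, by limma 3.58.1 (R 4.3.3) on log2(FPKM + 1), with a mean-variance trend, two-sided, at a Benjamini-Hochberg adjusted p of 0.05. The model was also run on simulated data, drawn independently for each gene and library. Such data lack any relation between genes, so that run does not test the calls reported here. Shares and ratios within libraries were compared with exact permutation tests (scipy 1.17.1). Near-identical copies were sought with BLAST 2.17.0 (at least 95% identity over 200 bases). Named are the 10 genes, their paralogs, the 3 genes of each related list with the smallest p, and the 5 genes most like Ppp1r1b, except that some items of these lists are not reported here. Slc17a6, marker genes listed at 0, the overlapping genes and the ratios between members were chosen after their values were seen. The members and lists were chosen with earlier results of these data known. Alternatives were other pseudocounts, filters, scalings, weights, a cortical signal (the mean of 4 standardised cortical markers), a replicate block and each library left out.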

Additional observations from a re-analysis of the deposited data

Results flagged for a closer look

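Of 86 sets of 5 values looked at (the genes reported and the 6 shares in each group), 3 had a highest library far from the other 4, where chance gives about 1 in 20. Arpp19 held 47.4% of the summed FPKM of Arpp19 and Ensa in Control 3, against 38.3 to 39.8% in the other controls. Ensa was at 212 FPKM in Control 1, with the other controls at 167 to 179. Ppp2r5d was at 12.7 FPKM in R6/2 4, with the other R6/2 libraries at 9.81 to 10.4. With each of the 10 libraries left out in turn, the difference in the Arpp19 share ran from -26.8 to -24.5 percentage points.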

How the results depend on the processing

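All 10 genes were called lower under all 20 alternatives, except that Ppp1ca could not be tested at a minimum mean of 5 FPKM. The largest adjusted p of a member was 0.0368, for Ppp1r9b with the cortical signal in the model, where the log2 change of Ppp1r1b was -2.10. Over all genes, 795 were higher and 1449 lower. The count of higher genes was 1520 after rescaling of protein-coding genes (1133 lower), 370 with the replicate block (975 lower) and 119 with the cortical signal (526 lower). After quantile normalization 1111 were higher and 1277 lower. Lower calls thus made up 64.6% of calls as reported, 42.7% after rescaling, which moved the median of all genes to 0.09 on the log2 scale, 53.5% after quantile normalization and 81.6% with the cortical signal.

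Replicate numbers did not pair the libraries: same-numbered libraries had correlations of -0.053 to 0.049 between their deviations, and 2 of 10 correlated best with their own number. With these numbers as a replicate block, an exact sign-flip test cannot give a p under 0.0625, so the shares and ratios did not pass (ratios p = 0.0625, shares adjusted p = 0.075), with unchanged differences of -1.47 percentage points for Ppp1ca, -19.2 for Ppp3ca, -26.2 for Arpp19, -8.72 for Ppp1r16b and -5.202 for Ppp1r1b. The share of Ppp1r9b, -0.27 points, was 0.508 without Control 2, 0.486 without Control 4 and 1.14 without R6/2 5, in a range of -1.297 to 1.14 over libraries left out. The other 5 shares passed with each library left out. Among genes that did not pass, the log2 change was 0.12 for Ppp1cc, -0.10 for Ppp3cb and 0.10 for Ppp1r16a with the cortical signal, and for Ppp3cb it ran from -0.046 (without Control 3) to 0.060 over libraries left out, with -0.018 without R6/2 3. With the block, Ppp1cb, Rcan2, Cdk5r1, Gria2 and Ptpn13 did not pass (adjusted p = 0.0573, 0.078, 0.0631, 0.0877 and 0.105). The ratios between members passed with each library left out (adjusted p = 0.0159). The causes were not tested. Unknown depth limits the low values of Ppp1ca.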
